A study of Mus musculus with 18 samples.

Results

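Nascent RNA of 9 genes that pause RNA polymerase II (Pol II) or carry it through a gene was followed in sorted mouse fetal liver cells. The genes were Polr2a, Supt5h, Supt6h, Cdk9, Ccnt1, Ccnt2, Hexim1, Ell2 and Trim33, chosen by their symbols, and all 9 were found among the 54232 genes listed in the deposited count table. RNA was labelled with 500 µM 4-thiouridine (4sU), a uridine analogue, for 45 min and the labelled RNA was purified and sequenced (4sU-seq), so that counts reflect RNA made in a short window. All cells came from C57BL/6 embryos at e12.5-e13.5, carried no stated genetic change and were rested in culture between sorting and labelling. There were 3 replicates of each of 6 populations, 18 libraries in all. S0-Low cells were Lin-, CD71- and Ter119-, S0-Medium cells Lin-, CD71 medium and Ter119-, and S1 cells Lin-, CD71 high and Ter119-. S2 cells were Lin-, CD71 high and Ter119 medium, S3 cells Lin-, CD71 high and Ter119 high, and Lin+ cells carried at least 1 marker of another blood lineage. The lineage panel was CD41, CD45R, CD3e, CD11b and Ly-6G/6C. CD71 is the transferrin receptor and Ter119 an antigen of maturing red cells.

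As background, Pol II often stops shortly after it starts a gene. DSIF, of which Supt5h encodes a subunit, and NELF hold it there, and it is released when P-TEFb, the kinase Cdk9 with a T-type cyclin (Ccnt1 or Ccnt2), phosphorylates DSIF, NELF and the tail of Polr2a, the largest Pol II subunit. Hexim1 keeps P-TEFb inactive in a particle built on the 7SK RNA, whereas Ell2 works with P-TEFb in the super elongation complex and speeds Pol II along the gene. Supt6h encodes a histone chaperone that travels with elongating Pol II, and Trim33 a chromatin-bound ubiquitin ligase known for its part in transcription elongation at blood cell genes.

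The total count per library lay between 9452476 in S0-Low replicate 3 and 40567976 in S1 replicate 1. The 9 genes were well covered, from 313 counts for Cdk9 in S3 replicate 1 to 25629 for Polr2a, and all 9 passed the filter on low counts. The labels call every population primary erythroblasts. The summed level of 8 erythroid marker genes, in CPM (counts scaled to a common total per library), was 499 to 1071 in S0-Low, 26864 to 45220 in S3 and 274 to 351 in Lin+. Lin+ libraries held 2669 to 5312 CPM of 6 neutrophil markers and 207 to 294 CPM of 6 macrophage and monocyte markers, all of them above 3 counts in at least 1 Lin+ library, and thus do not look like erythroblasts by these markers. In bulk RNA, fewer cells of a type and less RNA per cell cannot be told apart. The study describes its replicates as biological, while the labels only number them and do not tie them to animals, so p-values measure the spread between these libraries.

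The 9 genes lie on 7 chromosomes of GRCm38.p6. Polr2a spans chr11:69733997-69758633, Supt6h chr11:78206749-78245972 and Hexim1 chr11:103116325-103119725. Supt5h spans chr7:28314891-28338804, Cdk9 chr2:32705782-32712784, Ccnt1 chr15:98538690-98567736 and Ccnt2 chr1:127774164-127804837. Ell2 spans chr13:75707484-75772361 and Trim33 chr3:103279293-103358770. Trim33 is the longest at 79.5 kb and Hexim1 the shortest at 3.40 kb, the same length as its transcript, so it has no intron. Hardly any of their sequence recurs in other genes: at most 0.919% of the 31-base stretches of a member's transcripts, in Ell2, were also found in transcripts of another gene. Cdk9 overlaps 2 unnamed genes and Ell2 the small RNA gene SNORA42 on the same strand, where strand cannot separate their reads. Supt6h overlaps Sdf2 and Ccnt1 overlaps 9330020H09Rik on the other strand, and whether the counting used strand there is not given in the sources used here.

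Promoter sequences, from 250 bases before to 50 bases after the gene start, were matched for 8 of the 9 genes (RefSeq, GRCm38.p6). Those of the 4 genes that were called higher in S3 than in S0-Low are printed here with that of Cdk9, whose values go the other way. Windows are 5′ to 3′ on the gene's own strand, and capitals mark 3 motifs searched on both strands. The first was TATAAA, to which the general factor TBP binds near the start of some genes. The second was AGATAA, which holds the core bound by Gata1 and its relatives. The third was CCNCNCCC, with N for any base, the kind of box bound by Klf1, Sp1 and their relatives, whose copies could overlap each other. The windows are Ell2 (chr13:75707234-75707533, plus strand), Hexim1 (chr11:103116075-103116374, plus strand), Ccnt2 (chr1:127773914-127774213, plus strand), Polr2a (chr11:69758584-69758883, minus strand) and Cdk9 (chr2:32712735-32713034, minus strand).
Ell2: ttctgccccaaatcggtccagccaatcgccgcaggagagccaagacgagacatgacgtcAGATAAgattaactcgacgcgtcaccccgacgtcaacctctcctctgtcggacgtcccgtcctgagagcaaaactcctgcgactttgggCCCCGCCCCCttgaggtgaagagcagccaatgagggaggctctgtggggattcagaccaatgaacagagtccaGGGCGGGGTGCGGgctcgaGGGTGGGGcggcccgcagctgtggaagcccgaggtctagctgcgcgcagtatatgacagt
Hexim1: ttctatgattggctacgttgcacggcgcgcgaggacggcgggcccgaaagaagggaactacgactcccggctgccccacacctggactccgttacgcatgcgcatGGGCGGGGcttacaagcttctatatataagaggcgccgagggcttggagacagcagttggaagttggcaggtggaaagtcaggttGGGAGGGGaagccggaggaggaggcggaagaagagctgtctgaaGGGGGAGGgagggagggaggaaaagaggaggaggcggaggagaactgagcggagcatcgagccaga
Ccnt2: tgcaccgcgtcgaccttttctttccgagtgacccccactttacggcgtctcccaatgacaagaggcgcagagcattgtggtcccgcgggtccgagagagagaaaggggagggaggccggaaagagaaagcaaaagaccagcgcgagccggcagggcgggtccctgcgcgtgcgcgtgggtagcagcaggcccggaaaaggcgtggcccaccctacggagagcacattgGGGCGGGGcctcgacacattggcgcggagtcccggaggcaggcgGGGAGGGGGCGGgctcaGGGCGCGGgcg
Polr2a: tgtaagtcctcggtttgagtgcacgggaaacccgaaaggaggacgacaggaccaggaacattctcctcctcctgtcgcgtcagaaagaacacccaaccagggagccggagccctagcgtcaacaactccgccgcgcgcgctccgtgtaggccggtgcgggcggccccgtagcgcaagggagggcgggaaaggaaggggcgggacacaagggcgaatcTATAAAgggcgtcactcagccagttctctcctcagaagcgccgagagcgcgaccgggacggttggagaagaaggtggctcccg
Cdk9: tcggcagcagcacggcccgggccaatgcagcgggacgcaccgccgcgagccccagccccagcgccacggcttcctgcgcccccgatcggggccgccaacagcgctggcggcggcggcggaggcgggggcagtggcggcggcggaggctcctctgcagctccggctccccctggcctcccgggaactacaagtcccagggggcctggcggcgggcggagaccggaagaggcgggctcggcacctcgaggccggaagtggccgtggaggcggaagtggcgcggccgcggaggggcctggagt

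The Ell2 window held 5 copies of CCNCNCCC and was the only one of the 8 with AGATAA, a motif present in 11.2% of 32817 windows of the same length. CCNCNCCC was found in 5 of the 8 windows and in 49.5% of all windows, with 4 copies in Ccnt2, 3 in Hexim1, and none in Polr2a, Ccnt1 or Cdk9. TATAAA was found only in Polr2a, at position -33 from the start, and in 13.6% of all windows. All 8 windows were rich in G and C, from 59.3% in Supt6h to 78.3% in Cdk9 against a median of 52.7% over all windows. Their ratio of observed to expected CG pairs ran from 0.816 in Ell2 to 1.22 in Ccnt1 against a median of 0.383, so that all 8 have the CpG-rich start regions common in broadly used genes.

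**Figure D1:**
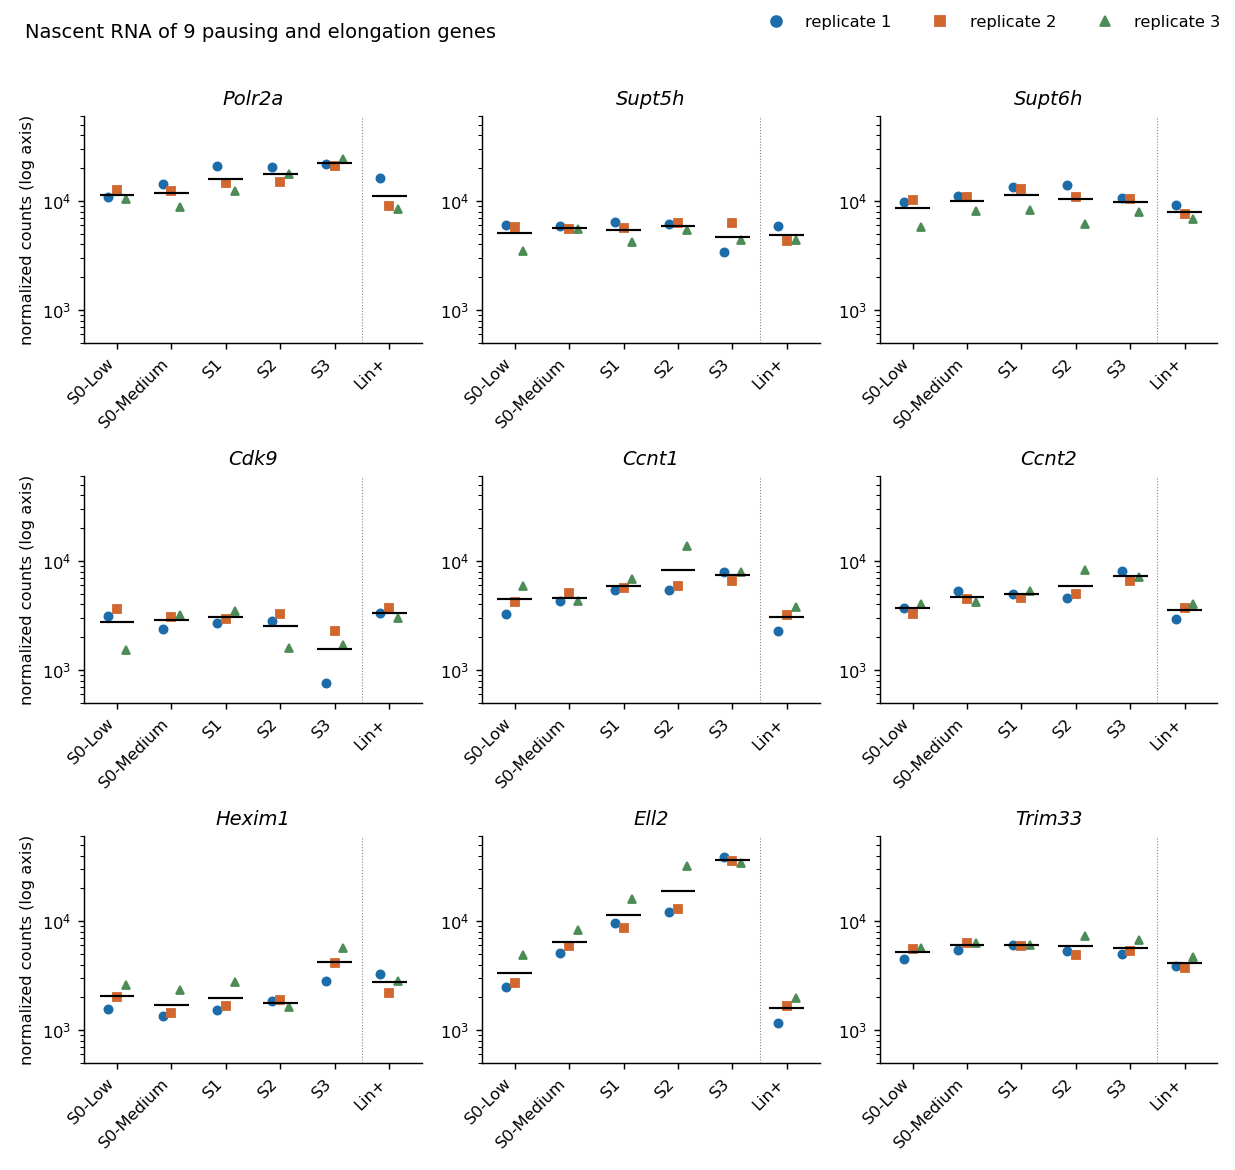
Normalized counts (log axis) of the 9 genes in the 18 libraries, by population, with replicates as symbols and the mean of 3 replicates as a bar. Ell2 climbs from 2481 to 4885 in S0-Low to 34111 to 38557 in S3, Hexim1 is higher in S3 than in S2, Cdk9 is lowest in an S3 library, and Supt5h, Supt6h and Trim33 lie within a narrow band.

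Levels below are normalized counts, that is counts scaled by edgeR's TMM factors to a common effective library size. Across all genes this scaling matters late in maturation. In S3 against S0-Low the typical tested gene had a log2 fold change of -0.54 after TMM and of -1.36 after scaling by library totals, and in S3 against S2 of -0.31 and -0.82. The corresponding medians in Lin+ against S3 were 0.69 and 1.47. The main changes of the 9 genes are therefore also given relative to the median gene of their comparison, a difference that depended little on the scaling in S3 against S0-Low. The median did depend on which genes were tested. With at least 10 counts required in every compared library, it was -0.048 over 7873 genes in S3 against S0-Low. It was -0.016 over 8152 genes in S3 against S2 and 0.017 over 8173 in Lin+ against S3. Values relative to the median gene thus refer to all genes of the main fit, those with fewer counts included.

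Between S0-Low, the least mature gate, and S3, the most mature, 4 of the 9 genes rose and none fell: Ell2, Hexim1, Ccnt2 and Polr2a (two-sided quasi-likelihood test in edgeR, p adjusted by Benjamini-Hochberg over 16555 genes, called under 0.05). Over all tested genes 35.8% were called in this comparison, 13.4% higher and 22.4% lower. The S3 and S0-Low libraries did not overlap for 5 of the 9 genes, the 4 above and Ccnt1, all higher in S3, against 42.5% of all tested genes in either direction. The median log2 fold change of the 9 genes was 0.73 against -0.54 over all genes, and 8 of the 9 lay above the median gene. With library totals 4 genes were also called, but only Ell2 was higher, and Supt5h, Cdk9 and Trim33 were lower, where 44.6% of all tested genes were called, 6.98% higher and 37.6% lower. With only the 6 compared libraries in the fit, Ell2 alone was called. Without S0-Low replicate 1 the calls were Ell2 and Ccnt2, and without S0-Low replicate 2 Ell2 and Polr2a. With at least 10 counts required in every compared library, Ell2, Ccnt2 and Polr2a were called higher. In that fit 1583 of 7873 genes were higher and 1415 lower, with a median of -0.048.

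Ell2 changed the most of the 9. It had 2481, 2716 and 4885 normalized counts in the S0-Low replicates, 5109, 5881 and 8227 in S0-Medium and 9580, 8680 and 15850 in S1. The level went on to 12143, 12985 and 31926 in S2 and 38557, 35775 and 34111 in S3. The means order the populations as they mature, and neighbouring populations did not overlap except S1 and S2. From S0-Low to S3 the mean went from 3361 ± 1325 to 36148 ± 2246 (SD, n = 3), 10.8-fold, with a log2 fold change of 3.43 (SE 0.44, adjusted p = 4.57e-05). That is 3.97 above the median gene with TMM and 3.93 above it with library totals, where the log2 fold change was 2.57 (adjusted p = 0.00036). The call held under each of 14 alternative fits, with adjusted p from 7.6e-13 to 0.00111.

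In level per length (CPM per kb of the longest transcript), Ell2 was the fifth of the 9 genes in S0-Low at 28.8 and had the highest mean in each later erythroid population. In S0-Medium, at 54.9 ± 13.9 (SD, n = 3) beside 54.4 ± 12.9 for Polr2a, this order was within the spread, as it was in S1 and S2, and in S3 Ell2 reached 310 ± 19.2 beside 103 ± 7.53 for Polr2a. Polr2a was the first in S0-Low at 52.3. Cdk9 went from the second place in S0-Low at 49.8 ± 19.9 to the eighth in S3 at 28.4 ± 13.9, and both places were within this spread. Supt5h, Supt6h and Cdk9 lay between 41.3 and 49.8 CPM per kb in S0-Low, close together, while Ccnt1, Ccnt2, Hexim1 and Trim33 lay between 17.1 and 19.0. These 4 could not be ranked beyond their spread in S0-Low.

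Hexim1, the inhibitor of P-TEFb, stayed near one level through the first 4 erythroid populations and was higher in S3. It had 1560, 2001 and 2587 normalized counts in S0-Low and 1339, 1433 and 2319 in S0-Medium. S1 had 1538, 1672 and 2741, S2 had 1835, 1889 and 1639, and S3 had 2841, 4120 and 5636. Each S3 library was above every library of the other 4 erythroid populations. S3 against S0-Low gave a log2 fold change of 1.03 (SE 0.36, adjusted p = 0.0352), 1.57 above the median gene. With library totals it was 0.14 (adjusted p = 0.78), 1.5 above the median gene. This call was made in 5 of 14 alternative fits only, with adjusted p from 0.00649 to 0.78, and was lost without S0-Low replicate 1 or 2 or S3 replicate 2 or 3.

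The kinase itself went the other way in its values. Cdk9 had 3153, 3618 and 1519 normalized counts in S0-Low, 2404, 3039 and 3218 in S0-Medium and 2701, 2954 and 3496 in S1. It had 2819, 3245 and 1586 in S2 and 758, 2288 and 1684 in S3. S0-Low replicate 3, the shallowest library, was as low as the S3 libraries, and the groups overlapped. From S0-Low to S3 its log2 fold change was -0.81 (SE 0.42, adjusted p = 0.139), with a range of 2 SE from -1.65 to 0.028, and was 0.27 below the median gene. Cdk9 was called lower with library totals (log2 fold change -1.66, adjusted p = 0.00722) and without S0-Low replicate 3, and adjusted p over the 14 alternatives ran from 0.00722 to 0.36.

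Of the cyclins that pair with Cdk9, Ccnt2 rose. It had 3740, 3239 and 4064 normalized counts in S0-Low and 8172, 6557 and 7138 in S3, with no overlap, a 1.98-fold difference of the means and a log2 fold change of 0.98 (SE 0.27, adjusted p = 0.0122). Levels of Ccnt2 in S0-Medium, S1 and S2 lay between, from 4233 to 5329 apart from 8227 in S2 replicate 3. Ccnt1 had 3303, 4207 and 5969 in S0-Low, 5436, 5930 and 13644 in S2 and 8003, 6564 and 7877 in S3. Its S3 libraries also lay above all S0-Low libraries, but the log2 fold change of 0.73 (SE 0.34) had an adjusted p of 0.104. With library totals the log2 fold changes were 0.15 for Ccnt2 and -0.13 for Ccnt1, neither called, which is 1.51 and 1.23 above the median gene. S2 replicate 3 stood apart as the highest library of its population for Ell2, Ccnt1 and Ccnt2.

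Polr2a had 10793, 12645 and 10373 normalized counts in S0-Low, 20438, 14793 and 17663 in S2 and 21864, 20856 and 24035 in S3. The S3 libraries lay above all 12 other erythroid libraries, although S1 replicate 1, at 20847, was at nearly the same level as the lowest of them. The mean rose 1.97-fold from S0-Low to S3, with a log2 fold change of 0.98 (SE 0.28, adjusted p = 0.014), 1.52 above the median gene. With library totals it was 0.14 (adjusted p = 0.681), 1.49 above the median gene. S0-Medium, with 14181, 12315 and 8717, overlapped S0-Low.

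Supt5h, Supt6h and Trim33 varied least. Supt5h had 6060, 5800 and 3464 normalized counts in S0-Low and 3396, 6313 and 4425 in S3, and its log2 fold change was -0.12 (2 SE range -0.72 to 0.48). Supt6h had 9759, 10149 and 5828 in S0-Low and 10761, 10481 and 7879 in S3, a log2 fold change of 0.18 (-0.50 to 0.85). Trim33 had 4491, 5585 and 5682 in S0-Low and 4960, 5332 and 6749 in S3, a log2 fold change of 0.11 (-0.40 to 0.62). None of the 3 was called, their groups overlapped, and the ranges leave room for changes of less than 2-fold either way. Relative to the median gene of the main fit, at -0.54, they were 0.42, 0.72 and 0.65 higher. With at least 10 counts required in every compared library the median was -0.048. There Supt6h, at -0.036, and Trim33, at -0.10, lay close to the median gene. With library totals Supt5h at -0.95 (adjusted p = 0.0177) and Trim33 at -0.75 (adjusted p = 0.0238) were called lower, and Supt6h at -0.63 changed sign without being called.

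**Figure D2:**
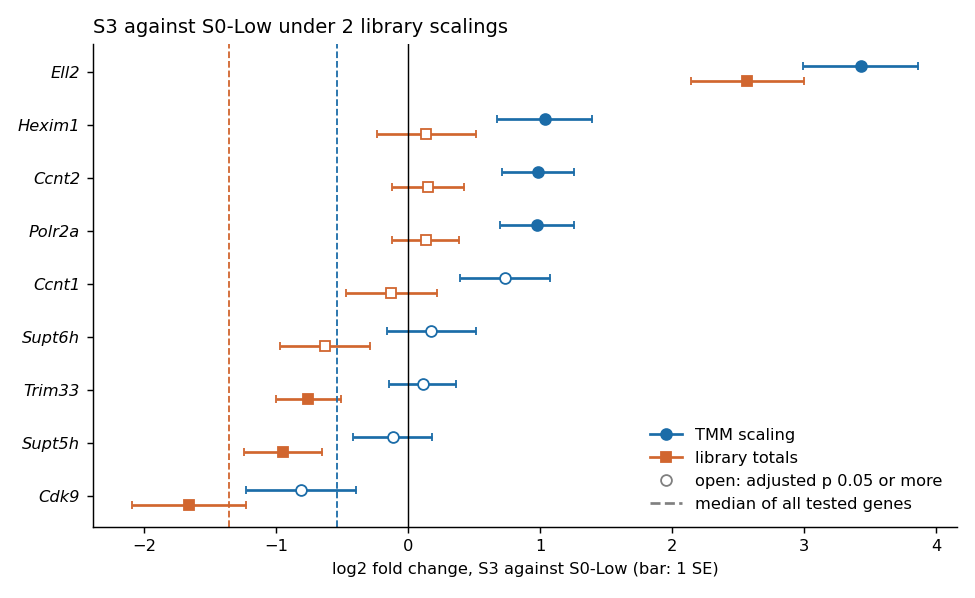
Log2 fold change of each gene in S3 against S0-Low (x axis, bars 1 SE) with TMM scaling and with library totals; filled symbols passed an adjusted p under 0.05 and dashed lines mark the median of all tested genes. The whole set shifts with the scaling, by about as much as the median gene, and Ell2 is the one gene called higher under both.

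Markers of stem and progenitor cells and of other cell types moved along with this comparison. The paper places haematopoietic stem and progenitor cells, with early erythroid progenitors (BFU-E), in S0-Low, so stem and progenitor markers belong to that gate. The lineage panel was used to set aside many cells of other lineages from all 5 erythroid gates. The summed level of 5 stem and progenitor markers went from 953 to 1326 CPM in S0-Low to 1.38 to 10.7 CPM in S3. The 6 neutrophil markers were at 338 to 765 CPM in S0-Low and at most 1.35 CPM in S3, where 4 of them had no more than 3 counts in any library. The 5 lymphoid markers were at 91.1 to 169 CPM in S0-Low and at most 0.315 CPM in S3, and all 5 hepatocyte markers had at most 3 counts in every S3 library and summed to 9.77 to 12.4 CPM in S0-Low. The 6 macrophage and monocyte markers went from 33.2 to 53.4 CPM to 0.0574 to 4.37 CPM, and the 5 megakaryocyte markers from 72.7 to 157 CPM to 55.5 to 106 CPM. The part of these cells in the levels of the 9 genes was not tested.

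The last step, from S2 to S3, has the same CD71 gate and a rise in Ter119. Hexim1 was the only gene of the 9 called, and it rose. Over all tested genes 9.35% were called, 3.26% higher and 6.09% lower. The log2 fold change of Hexim1 was 1.24 (SE 0.36, adjusted p = 0.0422), 1.55 above the median gene, with S3 higher in 3 of 3 same-numbered pairs and no overlap. Blocking on the replicate number gave 2 calls: Hexim1 at 1.15 (adjusted p = 0.00699) and Ell2 at 1.10 (adjusted p = 0.00856), where 18.6% of all tested genes were called. Without the block Ell2 had a log2 fold change of 0.93 (SE 0.40, adjusted p = 0.151), 1.24 above the median gene, and S2 replicate 3, at 31926, came close to the S3 libraries. Ell2 was also called when that library was left out.

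The Hexim1 call in this step was close to the threshold in the main fit, which, like the fits with a replicate left out, had no block. It was lost without S2 replicate 1, 2 or 3 and without S3 replicate 2 or 3, while the log2 fold change stayed between 0.95 and 1.27 in those fits. It was also lost with library totals, where the log2 fold change was 0.69, 1.5 above the median gene (adjusted p = 0.217, within a range of 0.00476 to 0.217 over 14 alternatives). The other 7 genes had log2 fold changes from -0.69 for Cdk9 to 0.34 for Polr2a and adjusted p of at least 0.305.

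In the 3 earlier steps no gene of the 9 was called. The same was true of all tested genes in edgeR's test (0.0% called in S0-Medium against S0-Low, 0.0% in S1 against S0-Medium and 0.0% in S2 against S1). Before adjustment, p was under 0.05 for 295 genes with higher and 244 with lower levels in the first of these steps, 278 and 857 in the second and 166 and 501 in the third, and DESeq2 called 55, 406 and 159 genes, none of the 9 among them. Ell2 had log2 fold changes of 0.93 (SE 0.40, unadjusted p = 0.0342), 0.82 (SE 0.40, unadjusted p = 0.0556) and 0.74 (SE 0.40, unadjusted p = 0.0817), and was higher in 3 of 3 pairs at each step. With the block its unadjusted p was 0.002, 0.0072 and 0.0192 (adjusted p = 0.342, 0.242 and 0.58), and 0.139%, 0.344% and 0.0% of all tested genes were called, none of the 9 among them. In both fits Ell2 was the only gene of the 9 with an unadjusted p under 0.05 in any of these steps. The difference of Ell2 over 4 steps was called, and no single early step was.

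A ratio of 2 genes within one library does not depend on the scaling, and 5 ratios were compared between S3 and S0-Low by an exact two-sided permutation test, whose smallest possible p with 3 against 3 libraries is 0.1. The Hexim1 to Cdk9 ratio of counts was 0.495, 0.553 and 1.70 in S0-Low, 0.651, 0.582 and 1.03 in S2 and 3.74, 1.80 and 3.35 in S3. All S3 libraries were above all other libraries, Lin+ at 0.986, 0.591 and 0.944 included, although S0-Low replicate 3 came close to S3 replicate 2. S3 exceeded S0-Low 3.65-fold (log2 difference 1.87, SE 0.66, exact p = 0.1, 0.167 after adjustment over the 5 ratios).

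The Ell2 to Polr2a ratio was 0.230, 0.215 and 0.471 in S0-Low, 0.594, 0.878 and 1.81 in S2 and 1.76, 1.72 and 1.42 in S3. S3 exceeded S0-Low 5.69-fold (log2 difference 2.51, SE 0.38, exact p = 0.1, adjusted 0.167), and S2 replicate 3 was already as high as the S3 libraries. Trim33 to Polr2a went down from 0.416, 0.442 and 0.548 to 0.227, 0.256 and 0.281, without overlap (log2 difference -0.88, SE 0.15, exact p = 0.1, adjusted 0.167). Ccnt2 to Ccnt1 differed by 0.21 (SE 0.23, exact p = 0.4) and Supt6h to Supt5h by 0.33 (SE 0.30, exact p = 0.3) on the log2 scale, with overlapping libraries. Paired by replicate number, the exact sign-flip test gave its smallest possible p of 0.25 for the first 3 ratios and 0.5 for the last 2.

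**Figure D3:**
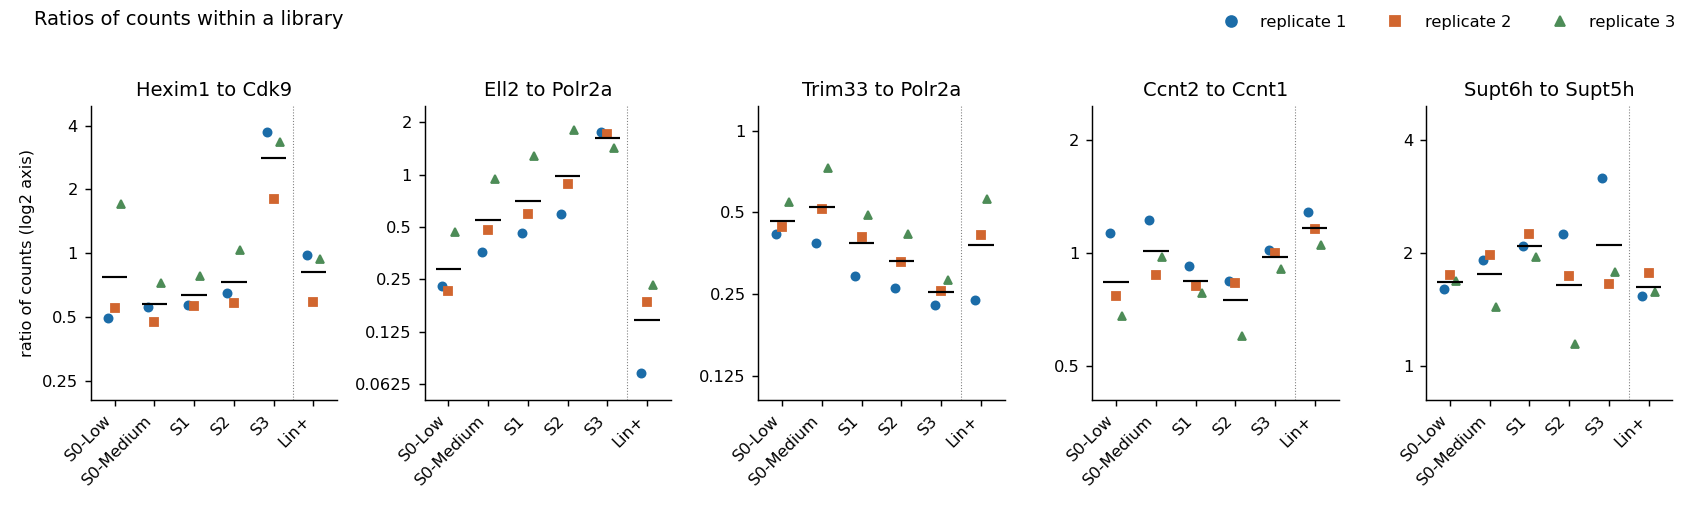
Ratio of counts of 2 genes within each library (log2 axis) by population, with replicates as symbols and geometric means as bars. Hexim1 to Cdk9 lies between 1.80 and 3.74 in S3 and at or under 1.70 elsewhere, Ell2 to Polr2a climbs with maturation, and Trim33 to Polr2a is lowest in S3 among the means.

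Lin+ cells, rich in neutrophil markers, were compared with both ends of the erythroid series. These comparisons share the S0-Low and S3 libraries with the one above. Against S0-Low no gene of the 9 was called, where 0.715% of 17755 tested genes were (0.496% higher and 0.22% lower in Lin+). Before adjustment, p was under 0.05 for 1223 genes with higher and 525 with lower levels, and DESeq2 called 665 genes, none of the 9 among them. Ell2 had 1174, 1667 and 1957 normalized counts in Lin+, below every S0-Low library, with a log2 fold change of -1.07 (SE 0.39, adjusted p = 0.285). Blocking on the replicate number, Ell2 was called lower (-1.03, adjusted p = 0.0469, within 0.0469 to 0.695 over 13 alternatives), where 1.93% of all tested genes were.

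Against S3, Lin+ cells had less nascent RNA of Ell2, Ccnt1, Ccnt2 and Polr2a and more of Cdk9. This is 1 gene called higher and 4 lower of 9, where 42.2% of all tested genes were called, 28.2% higher and 14.1% lower in Lin+. Ell2 was lowest in Lin+ of all populations, with a log2 fold change of -4.50 (SE 0.44, adjusted p = 9.56e-07), or -5.19 relative to the median gene. Cdk9 had 3339, 3705 and 3026 normalized counts in Lin+, all above the S3 libraries, and a log2 fold change of 1.09 (SE 0.39, adjusted p = 0.034), 0.40 above the median gene. With library totals Cdk9 was at 1.91, 0.44 above the median gene, and Supt5h joined it as higher, while Ell2, at -3.70, was the only gene still called lower, so that the split was 2 higher and 1 lower, where 47.7% of all tested genes were called, 40.1% higher and 7.54% lower. Relative to the median gene Ccnt1, Ccnt2 and Polr2a were at -1.96, -1.73 and -1.68 with TMM and at -1.93, -1.71 and -1.68 with library totals.

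Ccnt1 had 2303, 3175 and 3804 normalized counts in Lin+, below all S3 libraries (log2 fold change -1.27, SE 0.34, adjusted p = 0.00655). Ccnt2 had 2969, 3688 and 4006, also below S3 (-1.04, SE 0.26, adjusted p = 0.00446). Polr2a had 16251, 8966 and 8429, with Lin+ replicate 1 well above the other two and still below S3 (-0.99, SE 0.30, adjusted p = 0.0132). Hexim1, with 3291, 2189 and 2855, overlapped S3 and was not called (-0.60, adjusted p = 0.165), nor were Trim33 (-0.47, adjusted p = 0.121), Supt6h (-0.30) and Supt5h (0.05). Beside the neutrophil and macrophage markers given above, Lin+ libraries held 970 to 1341 CPM of the stem and progenitor, 353 to 1039 CPM of the megakaryocyte, 224 to 449 CPM of the lymphoid and 1.87 to 4.48 CPM of the hepatocyte markers, and their part in these differences was not tested. The Cdk9 call was lost without S3 replicate 1 or 3 or any 1 Lin+ replicate, and that of Polr2a without Lin+ replicate 2 or 3.

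The 9 genes were set among 85 genes of the elongation machinery in 10 role lists that include them, of which 83 were tested. In S3 against S0-Low 19 were higher, 6 lower and 58 not called, with a median log2 fold change of 0.18, where 13.4% of all tested genes were higher and 22.4% lower. Without the 9 genes it was 15 higher and 6 lower of 74, with a median of 0.085 against -0.54 over all genes. The background depended on the filter. With at least 10 counts required in every compared library, 1583 of 7873 genes were higher and 1415 lower, with a median of -0.048. With library totals the split over the 83 turned to 4 higher and 29 lower, against 6.98% and 37.6% of all tested genes. Among Pol II subunits Polr2a was the only one of 12 called, and the median of that list, -0.48, was close to the median gene. With library totals Polr2a was not called and 4 of the 12 were lower (Polr2b, Polr2e, Polr2g and Polr2j).

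The super elongation complex held large changes in both directions. Of 9 tested genes 4 were higher (Ell2, Aff1, Mllt3 and Eaf1) and 1 lower (Aff3), with a median of 1.06. With library totals 3 were higher (Ell2, Aff1 and Mllt3) and 3 lower (Aff3, Aff4 and Mllt1), with a median of 0.23. Aff1, one of the scaffolds that hold the complex together, had 4870, 3221 and 10785 normalized counts in S0-Low, 8823, 9463 and 26590 in S2 and 44489, 54336 and 75842 in S3. The scaffold Aff3 had 9427, 2522 and 6306 in S0-Low, 930, 299 and 320 in S1 and 0, 56 and 20 in S3. From S0-Low to S3 the log2 fold change was 3.21 for Aff1 (SE 0.56, adjusted p = 0.00053) and -7.82 for Aff3 (SE 1.12, adjusted p = 0.000117), and both were called in the same direction with library totals. Mllt3, which encodes the chromatin-reading subunit AF9, had 4230, 2273 and 4707 in S0-Low and 19149, 18260 and 17858 in S3 (log2 fold change 2.30, SE 0.46, adjusted p = 0.00157). Its S3 libraries were nearly equal, as those of Ell2 were.

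**Figure D4:**
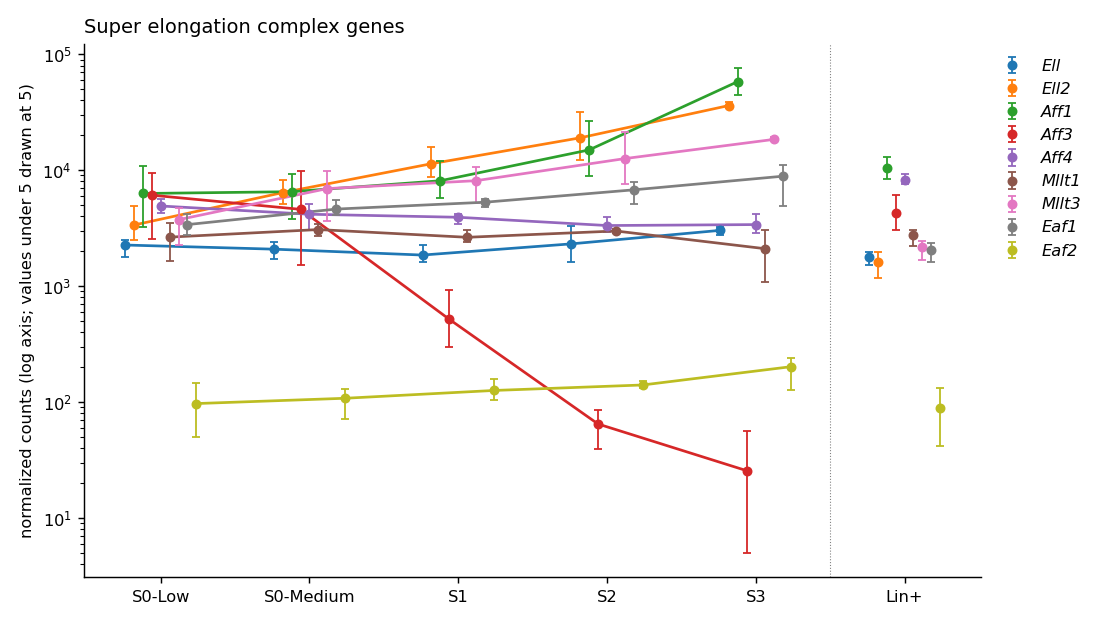
Mean normalized counts (log axis) of 9 super elongation complex genes in each population; bars span the lowest to the highest of 3 replicates and lines join the erythroid populations. Ell2, Aff1 and Mllt3 climb toward S3 while Aff3 goes from 6085 in S0-Low to 25.5 in S3.

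The genes of TFIIS, the factor that restarts stalled Pol II, moved in opposite directions. Tcea1 had 1031, 1414 and 523 normalized counts in S0-Low and 5845, 4123 and 3611 in S3, without overlap (log2 fold change 2.19, SE 0.44, adjusted p = 0.0015). Tcea2 had 409, 386 and 494 in S0-Low, 62, 158 and 97 in S1, 50, 66 and 1 in S2 and 0 counts in every S3 library. Against a floor of 3 counts in each S3 library it was at least 75.4-fold lower there than in S0-Low.

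Of the pausing factors NELF and DSIF 2 of 6 rose, Supt4a, the partner of Supt5h (log2 fold change 1.94, adjusted p = 0.0128), and the NELF subunit Nelfcd (1.49, adjusted p = 0.00623). In the P-TEFb and 7SK list Ccnt2 and Hexim1 rose, as given above, and none fell. Among chaperones and partners Trim24, a relative of Trim33, rose (1.48, adjusted p = 0.00137), Trim28, another relative, fell by 1.14 (adjusted p = 0.0176), and the other 6 were not called. The PAF1 complex had 1 of 6 lower (Wdr61, -1.49, adjusted p = 0.0292), Integrator 4 of 14 higher (Ints6, Ints9, Ints12 and Ints13), and termination factors 1 of 5 higher (Pcf11). Other kinases and phosphatases of the Pol II tail had 2 of 11 higher, Cdk12 and Rprd1b, and 2 lower, Rpap2 (-1.74, adjusted p = 0.0056) and Ccnh (-1.08, adjusted p = 0.0421). With library totals the rises of Supt4a, Nelfcd, Trim24, Eaf1, Cdk12, Rprd1b, Pcf11 and the 4 Integrator genes were no longer called and those of Aff1, Mllt3 and Tcea1 were. In that scaling none of the NELF and DSIF genes was higher and 3 of 6 were lower (Supt5h, Nelfa and Nelfb). None of the Integrator, PAF1 or termination genes was higher, and 5, 4 and 3 of them were lower. The P-TEFb and 7SK list had 0 higher and 1 lower (Cdk9), the chaperones and partners 0 and 2, and the other kinases and phosphatases 0 and 2. Single libraries also decided some of these calls. Those of Supt4a, Wdr61 and Ccnh were lost without S0-Low replicate 1 or 2 or S3 replicate 3, those of Wdr61 and Ccnh also without S3 replicate 1, and that of Trim28 without S0-Low replicate 1 or S3 replicate 1 or 2. Of the Integrator genes, Ints6 lost its call without S0-Low replicate 1 or S3 replicate 1, Ints9 without any 1 S0-Low replicate or S3 replicate 2 or 3, Ints12 without S0-Low replicate 1 or 3 or S3 replicate 3, and Ints13 without any 1 S0-Low replicate or S3 replicate 1. Those of Eaf1, Cdk12, Rprd1b and Pcf11 held with each library left out in turn.

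In S3 against S2, 3 of the 83 genes were higher, Hexim1, Aff1 (log2 fold change 1.97, adjusted p = 0.0302) and Cdk12, another kinase of the Pol II tail (0.87, adjusted p = 0.0454), and 1, Tcea2, was lower, where 3.26% of all tested genes were higher and 6.09% lower. With library totals the split was 0 higher and 16 lower, where 15.4% of all tested genes were called, 1.74% higher and 13.7% lower, and none of the 3 rises was called. The Aff1 call was also lost without S2 replicate 1 or 2 or S3 replicate 3, and that of Cdk12 without any 1 S2 replicate or S3 replicate 2 or 3. In Lin+ against S0-Low none of the 83 was called. In Lin+ against S3 7 were higher and 24 lower, where 28.2% and 14.1% of all tested genes were, and this became 24 and 9 with library totals, where 40.1% and 7.54% were. The largest falls there were Ell2, Mllt3 (-3.09, adjusted p = 5.14e-05), Aff1 (-2.49, adjusted p = 0.000987) and Tcea1 (-2.13, adjusted p = 0.000675). Aff3, with 3058, 3578 and 6162 normalized counts in Lin+, and Aff4 (1.28, adjusted p = 0.00104) were higher, and Tcea2 was at least 51.1-fold higher in Lin+ than the floor in S3.

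**Figure D5:**
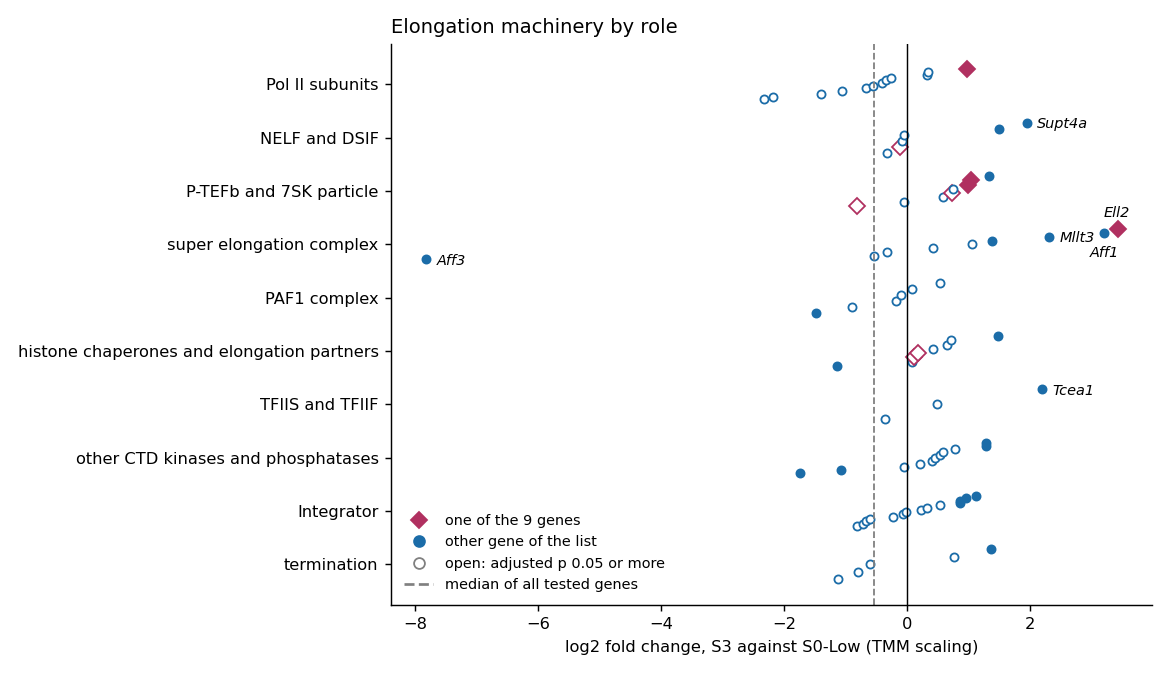
Log2 fold change from S0-Low to S3 (x axis, TMM scaling) of 82 genes of the elongation machinery by role list, with the 9 genes as diamonds, filled symbols for adjusted p under 0.05 and the median of all tested genes dashed; Tcea2, at 0 counts in S3, is left out. Ell2, Aff1, Mllt3 and Tcea1 lie farthest right and Aff3 farthest left.

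Over the 15 erythroid libraries, the genes with the profile most like each member were sought by Pearson's r of log2(CPM + 0.5) among 10273 named genes with a mean of at least 100 normalized counts. For Ell2 these were Bbs7 (r = 0.99) and Blvrb (r = 0.989), the latter encoding biliverdin reductase B. For Hexim1 they were Birc2 (0.957) and Zfp874b (0.945), for Cdk9 Ict1 (0.965) and Gm5913 (0.954), and for Ccnt2 4933426M11Rik (0.966) and Fgd6 (0.954). Polr2a was most like Hnrnpul2 (0.938) and Taf1 (0.931), Ccnt1 like Nudt21 (0.939) and 5730494N06Rik (0.938). Supt5h was most like Psma4 (0.942) and Edc4 (0.92), Supt6h was close to Hsp90aa1 (0.945), and Trim33, the flattest profile, was most like Mat2b (0.798) and Zfp800 (0.794). Among the 9 genes themselves Ccnt2 and Ell2 had an r of 0.913 and Cdk9 and Ccnt2 of -0.71. The points are the same 15 libraries and share depth and population.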

How the data were processed

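The 18 libraries of 4sU-labelled RNA were grouped into 6 populations of 3 replicates by the submitted labels. The authors used a strand-keeping kit with 14 cycles of PCR without molecular identifiers, quantified reads with Kallisto (0.43.0 and GRCm38 in the submitters' processing notes) and deposited expected counts, that is estimated counts per gene written as whole numbers, neither normalized nor pooled. Kallisto splits reads that match several transcripts, so near-identical copies share counts. The transcript set and the handling of introns are not given in the sources used here. A floor of 3 counts is 0.317 CPM in the shallowest library and covers counting error only.

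Fits were run with edgeR 4.0.16 under R 4.3.3 (TMM, filterByExpr with populations as groups, quasi-likelihood test, two-sided, Benjamini-Hochberg over all tested genes) with population as the only factor. The 15 erythroid libraries entered one fit (16555 genes), and all 18 entered the Lin+ comparisons (17755 genes). Alternatives were DESeq2 1.42.0, RLE factors, library totals, no filter, at least 10 counts in every compared library, the replicate number as a block, other sets of libraries and each replicate left out. Ratios used a pseudocount of 0.5 counts (5 as an alternative). Figures and tables were made in Python 3.11.15.

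Members, role lists and tests were chosen with earlier results of these data known. Of 86 genes on the role lists 85 matched, 8 through a RefSeq synonym. Named were all 9 members, up to 6 list genes in each direction with the largest change among those called in S3 against S0-Low, and up to 3 in S3 against S2 and in Lin+ against S3. Eaf1, Rprd1b, Pcf11, Cdk12 in S3 against S0-Low, 4 Integrator genes, the Pol II and NELF subunits called lower with library totals and the genes plotted for the super elongation complex were named after their values were seen. Results for 2 genes are not reported here. Gene positions come from RefSeq (GRCm38.p6); transcript lengths, overlaps and shared 31-base stretches come from GENCODE M1. No 2 replicates matched within sampling noise: chi-square over genes, divided by its degrees of freedom, was 89.4 to 503.

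Same-numbered libraries deviated together from their population means, with correlations over 0.1 for every pair in 5 of 7 comparisons. The lowest was 0.0844 in S3 against S0-Low and 0.0905 in Lin+ against S3, so these were treated as sharing a number only. The main fits and those with a replicate left out did not use the pairing in any of the 7 comparisons. Fits with the replicate number as a block are given beside them.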

Additional observations from a re-analysis of the deposited data

How the results depend on the processing

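Values are log2 fold changes of the 9 genes or counts of them called, and the cause of each change was not tested. In S3 against S2, where Hexim1 alone was called, 0 genes were called with library totals, 0 without a filter and 0 with only the 6 compared libraries, 2 with the replicate block, and 0 to 1 with each replicate left out. The count of 4 in S3 against S0-Low became 2 without a filter, 1 with only the 6 libraries and 2 to 5 with each replicate left out (2 without S0-Low replicate 1 or 2). In Lin+ against S0-Low the block gave 1 call in place of 0. In Lin+ against S3 the count of 5 became 3 with library totals and 3 to 5 with each replicate left out (3 without Lin+ replicate 2 or 3). The replicate block gave 5 calls in S3 against S0-Low, adding Ccnt1, and 6 in Lin+ against S3, adding Trim33, and changed no other call of the 9.

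Directions changed only for genes that were not called by edgeR with TMM. In S3 against S0-Low, library totals gave Supt6h -0.63, Ccnt1 -0.13 and Trim33 -0.75, the minimum of 10 counts gave Supt6h -0.036 and Trim33 -0.10, and the fit of 6 libraries gave Supt6h -0.00188 and Trim33 -0.080. Trim33 was at -0.010 with RLE factors and -0.0093 with DESeq2. In S3 against S2, library totals gave Polr2a -0.16 and Ccnt2 -0.17, while Supt6h was at 0.022 with RLE factors and 0.022 with DESeq2 and Trim33 at 0.095 and 0.095. In Lin+ against S3, library totals gave Supt6h 0.47, Hexim1 0.23 and Trim33 0.35. In Lin+ against S0-Low, Polr2a was at 0.051 with RLE factors, 0.046 without a filter, 0.041 with the minimum of 10 counts and 0.052 with DESeq2. Ccnt2 was at 0.0078, 0.021, 0.0021 and 0.0089 in that order, and Supt5h at 0.013 with RLE factors and 0.012 with DESeq2.

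With each replicate left out, S3 against S0-Low ran from -0.39 to 0.060 for Supt5h, from -0.093 to 0.29 for Supt6h and from -0.052 to 0.19 for Trim33. S3 against S2 ran from -0.36 to 0.18 for Supt6h, from -0.39 to 0.39 for Ccnt1 and from -0.20 to 0.14 for Trim33. Lin+ against S3 ran from -0.14 to 0.36 for Supt5h. Lin+ against S0-Low ran from -0.37 to 0.16 for Polr2a, from -0.28 to 0.076 for Supt5h, from -0.34 to 0.018 for Supt6h, from -0.015 to 0.52 for Cdk9 and from -0.14 to 0.065 for Ccnt2. Over the alternatives tallied for single genes, genes of the role lists named for a call with TMM included, 761 kept direction and call, 102 lost the call (36 for the 9 genes and 66 for the others), 9 gained one with the same direction and 50 changed direction, the last 2 counts all for the 9 genes. The 50 include Trim33 in S3 against S0-Low, which was called lower with library totals. All 50 are from the S3 and Lin+ comparisons above. Changes of direction in the 3 earlier steps were not counted, such as Polr2a in S0-Medium against S0-Low, at 0.056 with TMM and -0.0066 with RLE factors. With 3 libraries in each population, the exact permutation and sign-flip tests used for the ratios could not reach a p under 0.05.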
